A study of Homo sapiens with 24 samples.

Results

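The genes described here encode the SR proteins and the hnRNPs, the classical RNA-binding regulators of splicing. Members were all protein-coding genes whose symbol is SRSF followed by a number or begins with HNRNP, with 1 hnRNP gene not analysed here. They numbered 37, with 12 genes in the SR and 25 in the hnRNP family, out of 19799 protein-coding genes and 58174 genes in all. Total RNA had been sequenced from 4 human cancer cell lines, A549 (lung cancer), ES2 (ovarian cancer), MV3 (melanoma) and PANC1 (pancreas cancer), to find transcripts that depend on IGF2BP1, an RNA-binding protein of fetal tissue and tumours that protects mRNAs from decay. In each line 3 samples received a control siRNA (siC) and 3 received an siRNA pool directed against IGF2BP1 (siI1), which gave 8 groups and 24 libraries. RNA was taken 72 h after transfection in A549, ES2 and MV3 and 96 h after transfection in PANC1, so that in PANC1 the line and the time cannot be told apart. Each line stems from 1 tumour, the pool leaves part of the IGF2BP1 mRNA in place, and no other agent or allele is named for any group.

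SR proteins carry RNA recognition motifs (RRMs) and a domain rich in arginine and serine dipeptides, bind exonic enhancers and help to recruit the spliceosome to nearby splice sites. hnRNPs coat nascent transcripts and often act as silencers of the same exons, so that the balance of both families is a classical determinant of splice-site choice, while many hnRNPs also act in mRNA export, translation and decay. Several members of both families control their own mRNAs through poison exons or retained introns that lead to nonsense-mediated decay.

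The depth was 3105215 to 4553326 reads assigned to genes in the A549 libraries, 6421764 to 8419467 in ES2, 15572492 to 20082702 in MV3 and 6532175 to 8472851 in PANC1. IGF2BP1 mRNA was left at 39.4% of its siC mean in A549 and 31.7% in ES2, and 31.4% in MV3 and 24.9% in PANC1, and the siC and siI1 libraries did not overlap for it in any line. Lineage markers were partly absent: NKX2-1 and SFTPB were listed at 0 in all A549 libraries, SOX10, TYR, DCT and S100B at 0 in all MV3 libraries, and PAX8 had a siC mean of 0.157 FPKM in ES2, so that the lines are named here by their labels alone. Other markers moved with the knockdown. The keratins KRT7, KRT8 and KRT18 of epithelial cells had log2 fold changes of -1.41, -1.08 and -1.51 in A549 (adjusted p = 3.19e-04, 5.86e-04 and 0.00109). Outside A549 keratins rose or did not pass: KRT7 had 0.56 in ES2, and KRT8 had 0.51 in ES2, 0.24 in MV3 and 0.45 in PANC1 (adjusted p = 0.00127, 0.00402, 0.0395 and 0.0223). KRT7 did not pass in MV3 and PANC1, nor KRT18 in any line but A549. KRT19 had -0.53 in A549 and 0.46 in PANC1 (limma adjusted p = 0.00309 and 0.0215) and was not tested elsewhere. EPCAM, another epithelial marker, fell in PANC1 at -0.76 (limma adjusted p = 0.0248), did not pass in A549 and was not tested elsewhere. The mesenchymal marker VIM had -0.21 in A549, -0.28 in ES2 and 0.32 in PANC1 (limma adjusted p = 0.0298, 0.0124 and 0.0189). In MV3 VIM did not pass. The fibroblast collagen COL1A1 had 2.40 in ES2 and 1.71 in MV3 (adjusted p = 6.75e-04 and 8.09e-05). The leukocyte marker PTPRC did not exceed 0.0332 FPKM in any library. The part of these markers in the members' changes was not tested. Levels are given as FPKM, reads scaled to the listed gene length and to the library size as the authors normalized it, and changes as log2 fold changes (siI1 minus siC) of log2(FPKM + 0.5) with their standard error. The samples of a group are biological replicates per the study's methods. A gene was called lower or higher at an adjusted p under 0.05 in limma, adjusted within a line over all genes tested. In bulk RNA, fewer cells of a type and less RNA per cell cannot be told apart.

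In control cells the same few members stood at the top by FPKM. This order depends on the listed gene length, which was 2144 bases for HNRNPAB and 7309 bases for HNRNPC. By reads HNRNPC stood higher, with 2135 to 3187 in the A549 libraries against 772 to 1235 for HNRNPAB. In A549 SRSF1, the prototype SR protein, stood above HNRNPAB, an hnRNP of mRNA transport and translation, by more than their SDs, with 147 ± 4.28 FPKM (SD, n = 3) for SRSF1 and 132 ± 1.90 FPKM for HNRNPAB. In ES2 the order was HNRNPAB with 264 ± 4.60 FPKM, SRSF1 with 149 ± 4.39 FPKM and HNRNPF, which binds G-rich tracts, with 143 ± 3.86 FPKM. SRSF1 and HNRNPF lay closer to each other there than HNRNPAB lay to either, and their SDs overlapped. In MV3 HNRNPAB with 149 ± 7.95 FPKM was followed by SRSF1 with 136 ± 2.72 FPKM and HNRNPF with 104 ± 4.89 FPKM. In PANC1 HNRNPF led with 119.7 ± 6.26 FPKM, HNRNPAB followed with 113 ± 4.52 FPKM and an SD that overlapped that of HNRNPF, and SRSF2, a core exon-defining SR protein, had 95.9 ± 1.21 FPKM. Summed over all members of a family, the SR genes reached 441 to 589 FPKM and the hnRNP genes 774 to 1159 FPKM (siC means), the lowest in PANC1 and the highest in ES2 for both families.

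Upon IGF2BP1 knockdown some members of both families were lower in each line, although in A549 only 1 SR gene was. A larger share of the hnRNP than of the SR genes passed as lower, a difference between families that was not tested. In A549, the line of the lowest depth, 7 of 32 tested members were lower and 1 was higher, whereas 11.4% of tested protein-coding genes were lower and 7.94% higher. In ES2, 10 of 31 tested members were lower and 1 was higher, with a background of 17.9% lower and 13.4% higher. In MV3 the limma test called 21 of 31 lower and 1 higher, with a background of 26.8% lower and 19.6% higher. In PANC1, 19 of 31 passed as lower and 1 as higher, with a background of 17.3% lower and 13.6% higher. The lower members thus made up 21.9%, 32.3%, 67.7% and 61.3% of those tested in A549, ES2, MV3 and PANC1, above the background in each line, and the higher members a share below it. As most members are abundant, and abundant genes were called more often, the share lower among protein-coding genes averaging 10 FPKM or more, a split chosen after the values were seen, is set beside them. It was 17.7% in A549 and 28.8% in ES2, and 40.4% in MV3 and 21.9% in PANC1, against 5 of 25, 10 of 27, 18 of 27 and 16 of 25 members at that level. At this level the A549 members were close to the background, and the distance to it was largest in MV3 and PANC1. With all libraries of a line set to the same sum, the PANC1 counts were 30 lower and 0 higher. Under that scaling the median of all tested PANC1 genes moved by -0.64 and stood at -0.68, so that the count is not particular to the members. The PANC1 count of lower members was 12 without siC replicate 1 and 11 without siI1 replicate 2, and the ES2 count was 16 by voom on recovered reads. The shares of all genes called under these alternatives are not given here, so that these counts cannot be set against a background.

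**Figure D1:**
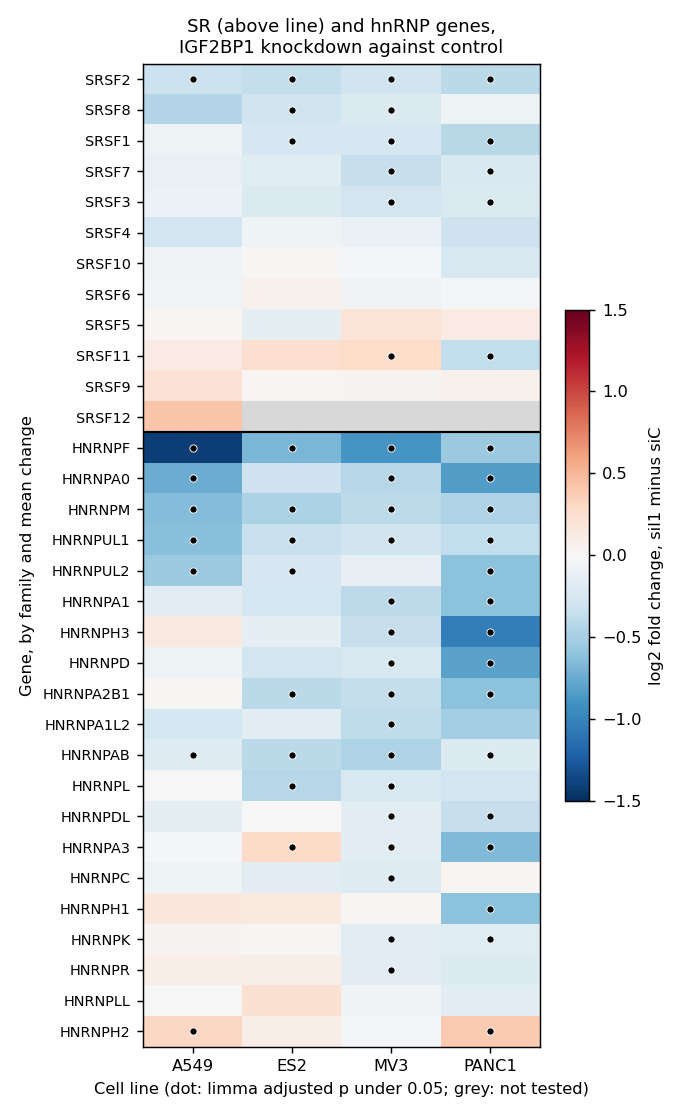
Log2 fold change (siI1 minus siC, colour scale from blue, lower, to red, higher) of the 32 members tested in at least 1 line, by cell line, with SR genes above and hnRNP genes below the black line and a dot where the limma adjusted p was under 0.05. HNRNPF, HNRNPM, HNRNPUL1, HNRNPAB and SRSF2 carry a dot and a blue cell in all 4 lines, and PANC1 holds the deepest blue apart from HNRNPF in A549.

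Set side by side, 1 of 12 SR and 6 of 20 hnRNP genes were lower in A549 and 3 of 11 and 7 of 20 in ES2, and 5 of 11 and 16 of 20 in MV3 and 5 of 11 and 14 of 20 in PANC1. The SR shares were 8.33%, 27.3%, 45.5% and 45.5% in this order of lines, and the hnRNP shares 30%, 35%, 80% and 70%. The background was 11.4%, 17.9%, 26.8% and 17.3%, so that the SR share lay below it in A549, where the lower SR gene was SRSF2. Among all protein-coding genes averaging 10 FPKM or more, the share lower was 17.7%, 28.8%, 40.4% and 21.9%. Beside these values the SR share was smaller in A549, similar in ES2 and MV3 and larger in PANC1. The hnRNP share was larger in each line. The family shares cover members of any level. The median log2 fold change of the SR genes was -0.06 in A549 and -0.15 in ES2, and -0.09 in MV3 and -0.22 in PANC1. That of the hnRNP genes was -0.07, -0.21, -0.24 and -0.49 in the same order, and that of all tested protein-coding genes -0.03, -0.03, -0.02 and -0.04. The SR median therefore lay above the hnRNP median by 0.15 in MV3 and 0.26 in PANC1, where the SD of this difference between libraries of a group was 0.0606 and 0.0383, and by 0.06 in ES2 (SD 0.0330). In A549 the medians differed by 0.01, less than the SD between libraries of 0.0553. The ES2 difference was 0.0158 with no filter on low values and 0.134 without siC replicate 1. The SR genes with a single RRM had medians of -0.08 in A549, -0.20 in ES2 and -0.25 in MV3, near the hnRNP medians. In PANC1 their median was -0.23, above that of the hnRNP genes. Few members rose. No SR gene was called higher by limma in A549, ES2 or PANC1, where the counts at an unadjusted p under 0.05 were 1, 1 and 0 and the counts by voom on recovered reads were 1, 1 and 0, and no hnRNP gene was higher in MV3, with 0 by either measure.

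**Figure D2:**
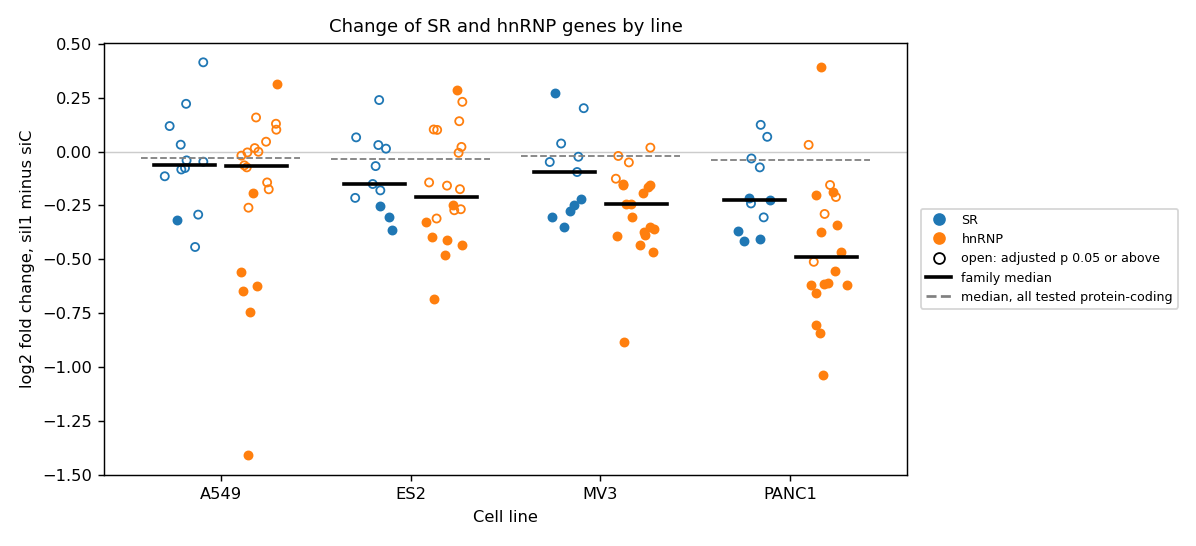
Log2 fold change (siI1 minus siC) of each tested SR (blue) and hnRNP (orange) gene by cell line, filled where the limma adjusted p was under 0.05, with family medians as black bars and the median of all tested protein-coding genes as a dashed line. The hnRNP median drops to -0.49 in PANC1, below the SR median of -0.22, and HNRNPF in A549 is the lowest point at -1.41.

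The balance of the families can be read within each library, without any scaling between libraries, as the summed FPKM of the SR genes divided by that of the hnRNP genes. In A549 this ratio was 0.532 to 0.562 in the siC and 0.577 to 0.611 in the siI1 libraries. In ES2 it was 0.507 to 0.511 and 0.536 to 0.557, in MV3 0.530 to 0.561 and 0.602 to 0.630, and in PANC1 0.564 to 0.576 and 0.604 to 0.609. The siI1 libraries lay above the siC libraries without overlap in each of the 4 lines. Both sums were lower after knockdown: the hnRNP sum went from a mean of 947 ± 3.23 to 820.5 ± 46.5 FPKM in A549, and in MV3 from 938 ± 25.7 to 746 ± 4.19 FPKM (SD, n = 3). In the same lines the SR sum went from 522 ± 17.1 to 491 ± 13.3 and from 510.2 ± 1.10 to 458 ± 8.24 FPKM. The sums are dominated by genes of high FPKM, which depends on the listed length as well as on reads. HNRNPF alone made up 11.3 to 11.4% of the hnRNP sum in the siC and 4.78 to 4.96% in the siI1 libraries of A549, and its share was also lower without overlap in the other lines, down to 12.5 to 13.97% from 14.4 to 16.1% in PANC1. With HNRNPF left out of the hnRNP sum, an alternative chosen after the data were seen, the A549 ratio was 0.600 to 0.634 in the siC and 0.607 to 0.642 in the siI1 libraries, which overlapped. The groups remained separate in the other lines, with 0.577 to 0.584 and 0.591 to 0.612 in ES2, 0.598 to 0.630 and 0.654 to 0.680 in MV3, and 0.661 to 0.687 and 0.696 to 0.702 in PANC1.

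**Figure D3:**
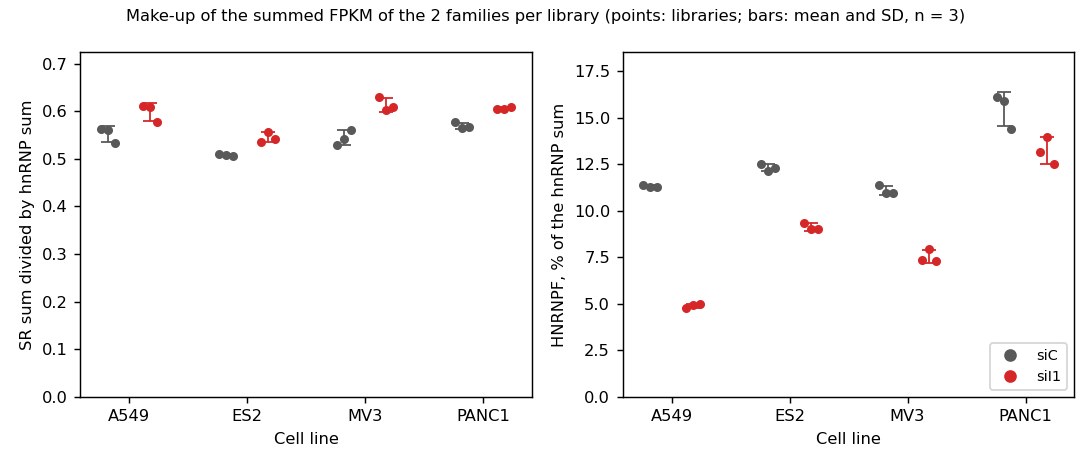
Left, summed FPKM of the SR genes divided by that of the hnRNP genes, and right, share of HNRNPF in the hnRNP sum in %, per library and cell line (grey, siC; red, siI1; points, libraries; bars, mean and SD, n = 3). The ratio is higher and the HNRNPF share lower in every siI1 library than in any siC library of its line, with the widest gap of the share in A549, from a mean of 11.3% to 4.88%.

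Lower in all 4 lines were 5 of the 31 members tested throughout, HNRNPF, HNRNPM, HNRNPUL1, HNRNPAB and SRSF2, against 3.28% of protein-coding genes. No member was higher in all 4 lines by limma, with 0 at an unadjusted p under 0.05 and 0 by voom, where the background was 0.705%. The calls of HNRNPF, HNRNPM and HNRNPUL1 held in all 4 lines under each alternative, including without any single library. Those of HNRNPAB and SRSF2 were less stable in A549: HNRNPAB was no longer called there when any of its 6 libraries was left out, and SRSF2 was not called without siC replicate 1, 2 or 3 or siI1 replicate 2. The count of members lower in all 4 lines was 3 without A549 siC replicate 1, 2 or 3 or siI1 replicate 2. As the 5 members were picked by their calls in these same libraries, the separation of their groups described below adds no further evidence.

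HNRNPF (chr10:43385617-43409186, minus strand, hg38), a regulator of splicing and polyadenylation that binds G-rich tracts, had the deepest fall of any member. In A549 its levels were 108, 107 and 106 FPKM in the siC and 37.3, 39.8 and 43.2 FPKM in the siI1 libraries. The log2 fold change was -1.41 ± 0.06 with an adjusted p of 3.69e-04. All 3 siI1 libraries lay far below the 3 siC libraries, with a gap much wider than the range within either group. In MV3 the levels were 109, 104 and 99.5 FPKM in the siC and 54.4, 59.2 and 54.8 FPKM in the siI1 libraries, a change of -0.88 ± 0.05 (adjusted p = 1.64e-04). In ES2 they were 146, 138 and 144 FPKM in the siC and 91.1, 86.7 and 88.1 FPKM in the siI1 libraries, a change of -0.68 ± 0.04 (adjusted p = 2.61e-04). The smallest fall was in PANC1, with 123, 123 and 112 FPKM in the siC and 80.8, 86.5 and 77.1 FPKM in the siI1 libraries, a change of -0.55 ± 0.07 (adjusted p = 0.00297). The groups did not overlap in any line. The deepest fall was in A549, which kept the largest share of its IGF2BP1 mRNA, and the smallest in PANC1, which kept the smallest share. A relation between the fall and the share left was not tested. The lines also differed in their IGF2BP1 siC means, with 39.7 FPKM in A549 and 11.1 FPKM in PANC1, and PANC1 was harvested later.

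HNRNPM (chr19:8444767-8489114, plus strand), a splicing regulator with roles in epithelial-mesenchymal transition, fell in each line. In A549 its levels were 32.8, 34.3 and 36.2 FPKM in the siC and 21.1, 20.4 and 23.98 FPKM in the siI1 libraries. The log2 fold change was -0.65 ± 0.08 (adjusted p = 0.00429). The changes in ES2, MV3 and PANC1 were -0.48 ± 0.08, -0.39 ± 0.05 and -0.46 ± 0.07, with adjusted p of 0.00787, 0.00159 and 0.00648. No siI1 library reached a siC library of its line, although the siC libraries of ES2 spread from 43.8 to 52.4 FPKM. A difference of the change between lines did not pass the threshold (adjusted p = 0.194), and the 4 estimates lay 0.26 apart on the log2 scale.

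HNRNPUL1 (chr19:41262496-41307787, plus strand), a relative of the nuclear scaffold hnRNPs with roles in transcription and the DNA damage response, fell most in A549. Its levels there were 85.7, 80.3 and 86.5 FPKM in the siC and 53.8, 53.4 and 55.9 FPKM in the siI1 libraries. The log2 fold change was -0.63 ± 0.05 (adjusted p = 0.00131). In ES2, MV3 and PANC1 the changes were -0.33 ± 0.06, -0.30 ± 0.05 and -0.37 ± 0.06, with adjusted p of 0.0126, 0.00578 and 0.009. The groups were separate in every line, at control levels that ranged from 26.2 ± 0.345 FPKM in PANC1 to 99.1 ± 6.09 FPKM in MV3.

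HNRNPAB (chr5:178204533-178211163, plus strand) fell most in the lines where it was most abundant. In ES2 its levels were 262, 260.3 and 269 FPKM in the siC and 196, 198 and 206 FPKM in the siI1 libraries. The log2 fold change was -0.40 ± 0.04 (adjusted p = 0.00131), and in MV3 it was -0.47 ± 0.05 (adjusted p = 7.34e-04). The falls in A549 and PANC1 were smaller, -0.19 ± 0.04 (adjusted p = 0.0329) and -0.20 ± 0.05 (adjusted p = 0.0312), and near the threshold. The libraries were separate in these lines too, with siI1 values of 97.5, 98.9 and 97.8 FPKM below siC values of 117, 113 and 108 FPKM in PANC1. The PANC1 call was lost when siC replicate 1 or 2 or any of the siI1 libraries was left out, with adjusted p between 0.0530 and 0.119, and with each library centred on its median (log2 fold change -0.13).

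SRSF2 (chr17:76734115-76737333, minus strand) was the SR gene that fell in all 4 lines, and by the most even amount of the shared members. In MV3 its levels were 89.9, 89.9 and 90.2 FPKM in the siC and 73.2, 72.9 and 72.5 FPKM in the siI1 libraries. The log2 fold change was -0.30 ± 0.02 (adjusted p = 3.16e-04). In A549, ES2 and PANC1 the changes were -0.32 ± 0.06, -0.36 ± 0.04 and -0.40 ± 0.05, with adjusted p of 0.0232, 0.00224 and 0.00393. The 4 estimates lay within 0.10 of each other, and no difference between lines passed the threshold (adjusted p = 0.478). In GENCODE 44, 27.7% of the exonic bases of SRSF2 overlap MFSD11 on the opposite strand, and the strand setting of the counting is not given in the sources used here. MFSD11 itself had siC means of 2.22 to 4.33 FPKM, far below SRSF2, and passed the test in no line, with changes from -0.33 in PANC1 to 0.03 in ES2.

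**Figure D4:**
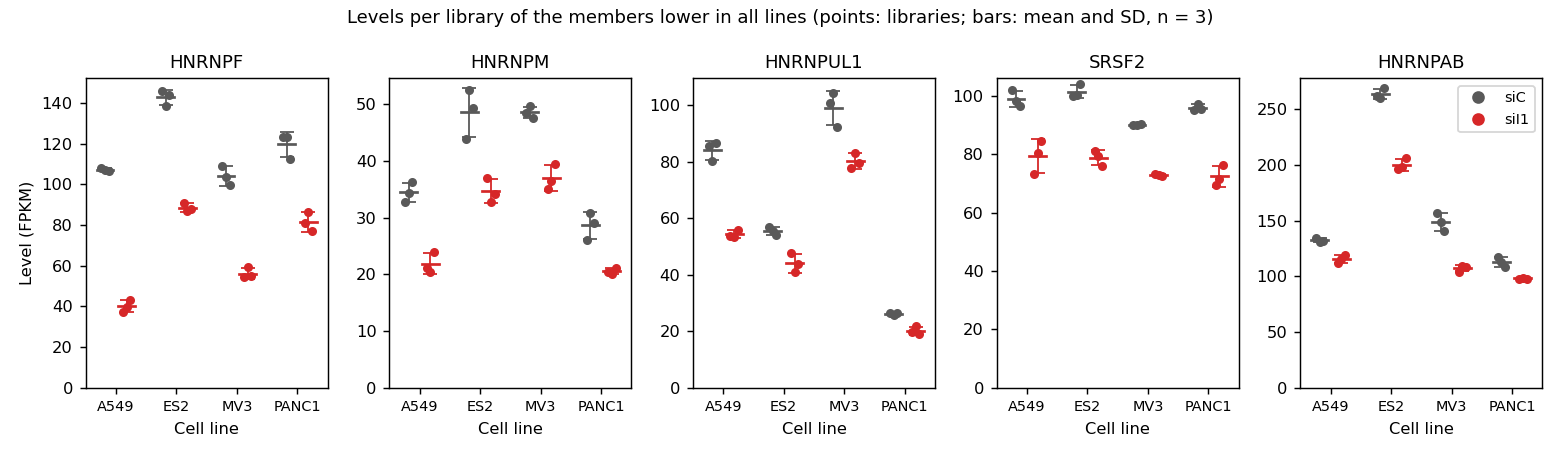
Level (FPKM) of the 5 members lower in all 4 lines in each library, by cell line (grey, siC; red, siI1; points, libraries; bars, mean and SD, n = 3). In all 20 pairs of groups the red points lie below the grey points without overlap, with the widest relative gap for HNRNPF in A549, from 107 ± 0.744 to 40.1 ± 2.98 FPKM. The 5 genes were chosen for being called lower in these same libraries, so that the separation largely follows from the choice.

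IGF2BP1 is known to bind mRNAs, often in the 3′ untranslated region (3′UTR), and CAU-containing tetramers were reported as its recognition letters, so the annotated 3′UTRs of the members were read. In the longest 3′UTR per gene in GENCODE 44, the letters CAUA, CAUC or CAUU on the transcript strand (the 3 tetramers exclude each other at a given position) occurred 11.2 times per kilobase (median) in the 5 members lower in all lines, 13.3 in the 26 other tested members and 11.7 in all tested protein-coding genes. The 5 shared members did not have long 3′UTRs: the median was 1020 nt, against 2230 nt in the other members and 1535 nt in all tested protein-coding genes. By family it was 2247 nt for SR and 1505.5 nt for hnRNP genes. The longest 3′UTR of a member was that of HNRNPA0 with 7498 nt, and the shortest among the tested ones that of HNRNPM with 267 nt. Each was taken from 1 annotated transcript, and its bases may be coding in another transcript of the gene, which was not checked. To show such matches in their context, the first window of 30 bases with the most matches is printed for the shared members where it held 2 of them, 5′ to 3′ from the GENCODE transcript, with the matching tetramers in capitals; the window of HNRNPM held 1.
HNRNPF: guuaggaaCAUUugaguuacuucaauCAUU
HNRNPUL1: gcuuccuuccccucCAUAgggccaggCAUU
HNRNPAB: guguggugucugagaggcCAUAgcgcCAUC
SRSF2: ggaauccgagacaCAUAacccuaauuCAUA
In hg38 these lie at chr10:43386603-43386632 (minus strand), chr19:41306719-41306748 (plus strand), chr5:178210811-178210840 (plus strand) and chr17:76736114-76736143 (minus strand), all in 3′UTR exons. Such windows are common: 82.8% of the 3′UTRs of all tested protein-coding genes held one with at least 2 matches, as did 27 of the 31 tested members, and 4.46% of all 30-base windows in those 3′UTRs held at least 2. The matches are letters in an annotated sequence, and binding was not measured in these files. The annotated 3′UTRs need not match the bases counted, as that of SRSF1 has 4487 nt and its listed gene length is 3340 bases.

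Lower in 3 lines were HNRNPA0, HNRNPUL2, HNRNPA2B1 and SRSF1. HNRNPA0, which binds AU-rich elements, was a low-level member with log2 fold changes of -0.84 ± 0.12 in PANC1 (adjusted p = 0.00498), -0.74 ± 0.12 in A549 (adjusted p = 0.0104) and -0.43 ± 0.10 in MV3 (adjusted p = 0.0196). In PANC1 its levels were 3.01, 3.84 and 2.99 FPKM in the siC and 1.58, 1.64 and 1.57 FPKM in the siI1 libraries. The groups did not overlap in ES2 either, where the change was -0.31 ± 0.11 (adjusted p = 0.0962). The MV3 call was lost without siC replicate 3, siI1 replicate 1 or siI1 replicate 2, with adjusted p of 0.0536 to 0.0589.

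HNRNPUL2, another relative of the scaffold hnRNPs, had log2 fold changes of -0.62 ± 0.13 in PANC1, -0.56 ± 0.08 in A549 and -0.25 ± 0.05 in ES2 (adjusted p = 0.0162, 0.00905 and 0.016). In A549 its levels were 10.8, 10.2 and 9.39 FPKM in the siC and 6.40, 6.98 and 6.77 FPKM in the siI1 libraries. The groups were also separate in MV3, at a change of -0.13 ± 0.04 (adjusted p = 0.0708). It shares 44.3% of its exonic bases, on the same strand, with the readthrough gene HNRNPUL2-BSCL2, which had at most 15 reads in any library, so that the split of reads between them is uncertain. The ES2 call was lost without siC replicate 3, siI1 replicate 2 or siI1 replicate 3 and the PANC1 call without siC replicate 1 or siI1 replicate 2, at adjusted p of 0.0502 to 0.0655. The ES2 call was also lost with all libraries set to the same sum (log2 fold change -0.18, adjusted p = 0.138).

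HNRNPA2B1, which sorts mRNAs and microRNAs and regulates splicing, fell in ES2, MV3 and PANC1 but not in A549. In ES2 its levels were 79.2, 81.7 and 78.8 FPKM in the siC and 60.6, 60.1 and 59.3 FPKM in the siI1 libraries, a change of -0.41 ± 0.04 (adjusted p = 8.64e-04). In MV3 and PANC1 the changes were -0.36 ± 0.03 and -0.62 ± 0.07 (adjusted p = 2.53e-04 and 0.00289). In A549 the libraries were intermingled, with 66.9, 75.6 and 71.3 FPKM in the siC and 67.2, 71.7 and 77.4 FPKM in the siI1 libraries. The A549 estimate was 0.02 ± 0.07, and the change differed between lines (interaction adjusted p = 3.88e-05).

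SRSF1, which promotes exon inclusion and also acts in translation, was lower in the same 3 lines. Its levels in PANC1 were 94.6, 87.03 and 94.7 FPKM in the siC and 72.2, 69.5 and 64.97 FPKM in the siI1 libraries. The log2 fold changes were -0.42 ± 0.06 in PANC1, -0.25 ± 0.05 in ES2 and -0.25 ± 0.03 in MV3 (adjusted p = 0.00613, 0.00998 and 0.00247). The ES2 call was lost with all libraries set to the same sum (-0.18, adjusted p = 0.136). In A549, where SRSF1 had the highest siC FPKM of any member, the change was -0.08 ± 0.04 (adjusted p = 0.302). Even so, the siI1 libraries with 138.3, 142.1 and 138.5 FPKM all lay just under the siC libraries with 149.6, 149.9 and 142.3 FPKM. In GENCODE 44, 32.7% of its exonic bases are shared with an unnamed protein-coding gene on the same strand, listed at no more than 0.0506 FPKM on average, so that the split of reads is uncertain. GENCODE 44 gives SRSF1 5781 exonic bases, against a listed length of 3340 bases, so that this share need not describe the bases counted. The change differed between lines (interaction adjusted p = 0.0022).

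Members were also grouped by structure, and differences between these groups were not tested. Lower were 11.4%, 17.9%, 26.8% and 17.3% of all tested protein-coding genes in A549, ES2, MV3 and PANC1, the background for each count. Of the hnRNP A/B and D genes, the RRM proteins related to HNRNPA1, 2 of 8 were lower in A549 and 2 of 8 in ES2, and 8 of 8 in MV3 and 7 of 8 in PANC1, with median changes of -0.16, -0.27, -0.37 and -0.62. HNRNPA1, the best-studied splicing silencer, was lower in MV3 at -0.39 ± 0.04 and in PANC1 at -0.61 ± 0.06, though its reads may be shared with the near-identical HNRNPA1L2 and processed pseudogenes. The F/H genes, which bind G-rich tracts, had medians of 0.14 in A549 and -0.02 in ES2, and -0.18 in MV3 and -0.59 in PANC1. Of 4 F/H genes 1 was lower in A549 and 1 in ES2, HNRNPF both times, 2 in MV3 and 3 in PANC1. HNRNPC, which binds uridine tracts, was the only hnRNP C gene tested and was lower in MV3 at -0.19 ± 0.03. Of the SR genes with a single RRM (SRSF2, SRSF3, SRSF7, SRSF8, SRSF10, SRSF11 and SRSF12), 1 of 7, 2 of 6, 4 of 6 and 4 of 6 were lower in A549, ES2, MV3 and PANC1. Their median changes were -0.08, -0.20, -0.25 and -0.23. Of the SR genes with a further RRM (SRSF1, SRSF4, SRSF5, SRSF6 and SRSF9), 0 of 5, 1 of 5, 1 of 5 and 1 of 5 were lower, the lower gene being SRSF1 in each of the last 3 lines. Median changes of this group were -0.04, -0.07, -0.05 and -0.03. These SR counts with a further RRM lay near or below the background. The A549 count is by limma, with 1 lower at an unadjusted p under 0.05 and 1 by voom.

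The members that rose were HNRNPH2, HNRNPA3 and SRSF11, and 2 of them were lower in another line. HNRNPH2, on the X chromosome and a near relative of HNRNPH1, had 27.9, 30.3 and 30 FPKM in the siC and 37.2, 39.9 and 39.1 FPKM in the siI1 libraries in PANC1, a log2 fold change of 0.39 ± 0.06 (adjusted p = 0.00513). In A549 the change was 0.31 ± 0.07 (adjusted p = 0.0274), with 22.7, 26 and 25.8 FPKM in the siC and 30.5, 31.5 and 30.9 FPKM in the siI1 libraries. The siI1 libraries lay above the siC libraries in both lines and in ES2, where the change was 0.10 ± 0.06 (adjusted p = 0.242), while in MV3 the groups overlapped. The A549 call was lost without siC replicate 1 or 3 or any of the siI1 libraries and with all libraries set to the same sum (0.28, adjusted p = 0.0839). The PANC1 rise is relative to the authors' scaling: with all libraries set to the same sum, the median of all tested genes moved by -0.64 in PANC1 and the change of HNRNPH2 became -0.35, still above that median of -0.68.

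HNRNPA3, a relative of HNRNPA2B1, was higher in ES2 and lower in MV3 and PANC1. In ES2 its levels were 26.8, 27.7 and 25.2 FPKM in the siC and 33.96, 32.2 and 31.3 FPKM in the siI1 libraries, a change of 0.29 ± 0.05 (adjusted p = 0.0132). In PANC1 they were 17.98, 19.1 and 22.7 FPKM in the siC and 13.2, 11.5 and 12.5 FPKM in the siI1 libraries, a change of -0.66 ± 0.10 (adjusted p = 0.00629), and in MV3 the change was -0.15 ± 0.03 (adjusted p = 0.00876). The MV3 call was lost with all libraries set to the same sum (-0.17, adjusted p = 0.0857). The groups were separate in these 3 lines and overlapped in A549. In GENCODE 44, 53.6% of its exonic bases overlap NFE2L2 on the opposite strand, and without a stated strand setting the reads of both genes cannot be told apart. NFE2L2 was listed with changes of 0.18 in ES2 (adjusted p = 0.102), -0.12 in MV3 (adjusted p = 0.0387) and -0.30 in PANC1 (adjusted p = 0.0676), the same signs as HNRNPA3, and with 0.08 in A549 (adjusted p = 0.715), where HNRNPA3 had -0.02.

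SRSF11, an SR protein of the nuclear speckles, was higher in MV3 and lower in PANC1. In MV3 its levels were 21.6, 21.8 and 23.2 FPKM in the siC and 28.7, 25.7 and 26.2 FPKM in the siI1 libraries, a change of 0.27 ± 0.05 (adjusted p = 0.00841). In PANC1 they were 17.1, 15.2 and 19.5 FPKM in the siC and 13.4, 12.9 and 13.2 FPKM in the siI1 libraries, a change of -0.37 ± 0.09 (adjusted p = 0.0307). The groups were separate in both lines and in ES2, where the siI1 libraries were higher at 0.24 ± 0.08 without passing the test (adjusted p = 0.086). The MV3 call was lost with all libraries set to the same sum (0.26, adjusted p = 0.0852), and the PANC1 call with no filter on low values (adjusted p = 0.0573) and when any library but siC replicate 2 was left out.

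The change upon knockdown differed between the 4 lines for 19 of the 31 members tested throughout (61.3%, limma interaction test), against 54.8% of protein-coding genes, which is a similar share. They were 17 of 20 hnRNP and 2 of 11 SR genes. With each line keeping its own standard errors (Cochran's Q), 12 members passed. The smallest p-values were those of HNRNPF (adjusted p = 4.93e-07), HNRNPH3 (adjusted p = 9.16e-06), HNRNPA3, HNRNPA2B1 and HNRNPH1 (adjusted p = 9.15e-05). The estimate farthest from the others was that of A549 for HNRNPF and HNRNPA2B1 and that of PANC1 for HNRNPH3, HNRNPA3 and HNRNPH1.

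HNRNPH3, the smallest H protein, had levels of 15.05, 15.5 and 21.03 FPKM in the siC and 7.68, 8.26 and 8.21 FPKM in the siI1 libraries in PANC1. The log2 fold change of -1.04 ± 0.13 (adjusted p = 0.00335) was the largest fall of a member in that line. In MV3 the change was -0.35 ± 0.03 (adjusted p = 5.60e-04), and in ES2 and A549 the groups overlapped at -0.14 ± 0.07 and 0.13 ± 0.08. HNRNPH1, its more abundant relative, was lower in PANC1, with 32, 27.3 and 39.3 FPKM in the siC and 21.6, 20.1 and 21.3 FPKM in the siI1 libraries, a change of -0.62 ± 0.13 (adjusted p = 0.0167). In A549, ES2 and MV3 its estimates were 0.16 ± 0.07, 0.14 ± 0.04 and 0.02 ± 0.03, none of which passed the test. Its PANC1 call was lost without siC replicate 1, siI1 replicate 1 or siI1 replicate 2, at adjusted p of 0.0503 to 0.0581. Within PANC1 the family thus held HNRNPH3 and HNRNPH1 lower beside HNRNPH2 higher.

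**Figure D5:**
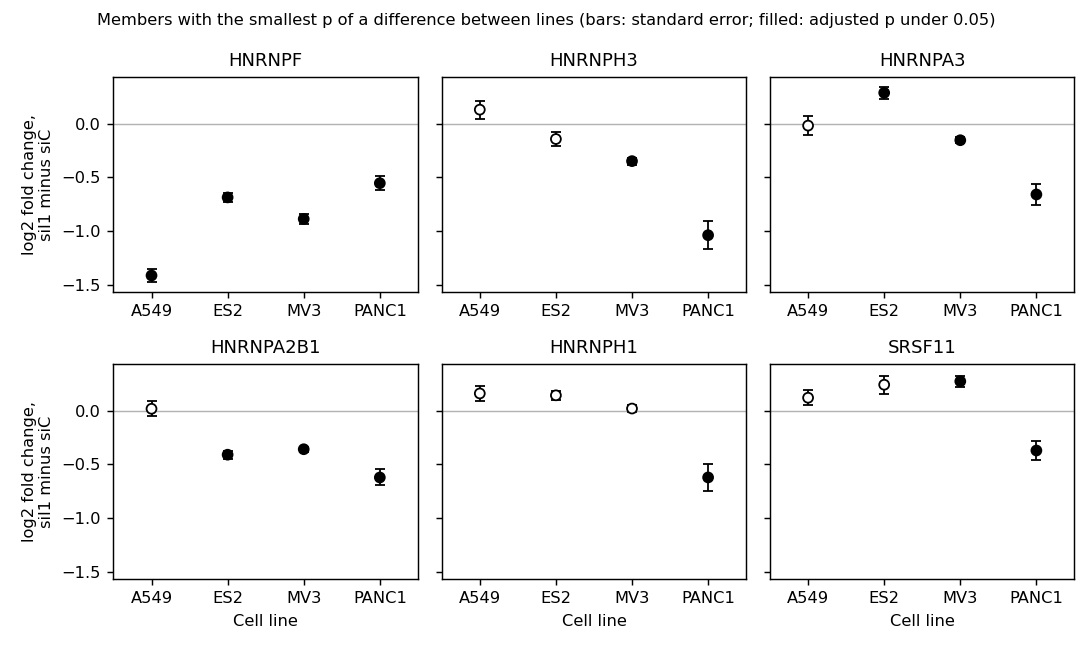
Log2 fold change (siI1 minus siC) with its standard error in each cell line for the 6 members with the smallest p of a difference between lines, filled where the limma adjusted p within the line was under 0.05. HNRNPF is lowest in A549 at -1.41, whereas HNRNPH3, HNRNPA3, HNRNPA2B1, HNRNPH1 and SRSF11 are lowest in PANC1, at -1.04, -0.66, -0.62, -0.62 and -0.37.

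The PANC1 groups differed in their sums and by gene length. Summed over all genes their FPKM were 526337 to 756438 in the siC and 977547 to 1191707 in the siI1 libraries, and the change of protein-coding genes varied with the listed length, with a median of 0.16 for genes under 2000 bases and -0.11 for genes of at least 5000 bases. The same medians were 0.05 and -0.05 in A549, -0.14 and 0.01 in ES2, the opposite order, and -0.04 and -0.00 in MV3. No tested member was shorter than 2000 bases and 21 were at least 5000 bases long. In PANC1 the median change of these 21 members was -0.37 and that of the shorter members -0.21. In ES2 the same pair of medians was -0.15 and -0.22, in MV3 -0.16 and -0.28, and in A549 -0.05 and -0.11, so that the long members had the lower median in PANC1 and the higher one in the other lines. The families also differed in listed length, with a median of 4593 bases for the SR and 5768.5 bases for the hnRNP genes tested in every line. The part of gene length in the members' changes, and in the difference between the families, was not tested.

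Among the remaining members, lower in MV3 and PANC1 were SRSF3, SRSF7, HNRNPA1, HNRNPD, HNRNPDL and HNRNPK, the last of which, a poly(C)-binding protein and one of the most abundant members, changed by only -0.15 ± 0.03 and -0.19 ± 0.05. HNRNPD, the AU-rich element binding protein AUF1, had a deeper fall in PANC1, with a log2 fold change of -0.81 ± 0.20 (adjusted p = 0.0291). SRSF8 and HNRNPL, a CA-repeat binding protein, were lower in ES2 and MV3, and HNRNPA1L2, HNRNPC and HNRNPR were lower in MV3. HNRNPK, HNRNPD, SRSF6 and SRSF9 are given with values because of those values. The members that passed in no line were SRSF4, SRSF5, SRSF6, SRSF9, SRSF10, SRSF12 and HNRNPLL. SRSF6 stayed closest to 0, with estimates from -0.05 to 0.07 and standard errors of 0.03 to 0.05. Of the members tested in all lines, SRSF9 was the one with a positive estimate in every line, from 0.03 in ES2 to 0.22 in A549, and 43.6% of its exonic bases overlap GATC on the opposite strand. SRSF12 was tested in A549 alone, at 0.41 ± 0.42 and levels of 0.270, 0.884 and 0.602 FPKM in the siC and 1.78, 0.532 and 0.683 FPKM in the siI1 libraries, which overlapped.

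HNRNPCL1, HNRNPCL2, HNRNPCL3, HNRNPCL4 and HNRNPUL2-BSCL2 were too low to be tested in any line. HNRNPCL3 and HNRNPCL4 had 0 reads in all 24 libraries, which allows up to 3 reads in a library, HNRNPCL1 and HNRNPCL2 had at most 2 and 1, and HNRNPUL2-BSCL2 at most 15. The HNRNPCL genes are near-identical copies of each other, so that their counts are uncertain. SRSF12 had at most 1 read in the libraries of ES2, MV3 and PANC1.

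The partners of these proteins were read from 4 lists, with counts by limma. Of 13 tested kinases, import factors and SR-like regulators, which phosphorylate SR proteins, carry them into the nucleus or work beside them, A549 had 2 lower and 0 higher, ES2 had 2 lower and 2 higher, MV3 had 5 lower and 2 higher and PANC1 had 3 lower and 0 higher. The lower shares of 15.4%, 15.4%, 38.5% and 23.1% in A549, ES2, MV3 and PANC1 stood beside a background of 11.4%, 17.9%, 26.8% and 17.3%, near it in A549, ES2 and PANC1. For higher genes the background was 7.94%, 13.4%, 19.6% and 13.6% of all tested protein-coding genes in the same order. By voom none of the 13 was higher in A549 and 1 was higher in PANC1, as at an unadjusted p under 0.05. SRPK1, the kinase that phosphorylates the arginine and serine dipeptides of SR proteins in the cytoplasm, was the single gene of the 4 lists that was lower in all 4 lines. Its log2 fold changes were -0.98 ± 0.09 in A549 and -0.83 ± 0.05 in ES2, and -0.67 ± 0.05 in MV3 and -1.19 ± 0.07 in PANC1, with adjusted p of 0.00226, 2.20e-04, 2.67e-04 and 6.10e-04. These falls were larger than that of any SR gene in the same line. Of 12 proteins of the hnRNP complexes with other symbols, A549 had 2 lower and 0 higher, ES2 had 5 lower and 0 higher, MV3 had 4 lower and 0 higher and PANC1 had 5 lower and 1 higher. The lower shares were 16.7%, 41.7%, 33.3% and 41.7% in the same order, against the background of 11.4%, 17.9%, 26.8% and 17.3% lower. Among protein-coding genes averaging 10 FPKM or more, 17.7%, 28.8%, 40.4% and 21.9% were lower. The list share was close to this in A549 and below it in MV3, though the levels of the list genes are not given here. By voom, and equally at an unadjusted p under 0.05, 0, 1 and 1 of these were higher in A549, ES2 and MV3. The shares of all genes called in these ways are not given here. Their medians of -0.11, -0.29, -0.12 and -0.32 may be set beside those of the hnRNP members, -0.07, -0.21, -0.24 and -0.49.

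Of 38 core spliceosome subunits, A549 had 2 lower and 2 higher, ES2 had 15 lower and 2 higher, MV3 had 20 lower and 2 higher and PANC1 had 3 lower and 6 higher, with medians of -0.06, -0.21, -0.19 and -0.02. Higher were 7.94%, 13.4%, 19.6% and 13.6% of all tested protein-coding genes in the same order. The 6 of 38 higher in PANC1 lay near this background, and the 2 of 38 in A549, ES2 and MV3 below it. The lower shares of 5.26%, 39.5%, 52.6% and 7.89% were below the background of 11.4% in A549 and 17.3% in PANC1 and above that of 17.9% in ES2 and 26.8% in MV3. Among protein-coding genes averaging 10 FPKM or more, 17.7%, 28.8%, 40.4% and 21.9% were lower. In ES2 and MV3 these values lay closer to the list shares. The levels of the list genes are not given here. Of the 5 exon junction complex genes, A549 had 0 lower and 0 higher, ES2 had 1 lower and 1 higher, MV3 had 4 lower and 0 higher and PANC1 had 2 lower and 0 higher. The lower shares were 0%, 20%, 80% and 40% of these few genes. At an unadjusted p under 0.05, 0 were lower and 1 higher in A549 and 0 higher in MV3 and in PANC1, and by voom 1 was lower and 1 higher in A549 and 0 higher in MV3 and in PANC1. The shares of all genes called in these ways are not given here.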

How the data were processed

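Total RNA depleted of ribosomal RNA was sequenced from 24 samples, 3 biological replicates per group, in 4 cell lines. Per the study's methods and the submitters' processing notes, reads were clipped with cutadapt 1.14, aligned to hg38 with HISAT2 2.1.0, handled with SAMtools 1.5 and counted per gene with featureCounts 1.5.3 and an Ensembl annotation. The library kit was directional, but the strand setting of the counting is not given in the sources used here. The authors deposited 1 table per line with FPKM values, scaled by TMM in edgeR 3.30.3 and divided by a listed gene length, so that levels of different genes are per length. The deposited tables also hold the authors' own log2 fold changes, p-values and false discovery rates of siI1 against siC, which were not used.

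Groups followed the sample labels. All deposited FPKM values came out as whole reads (tolerance 0.001 reads) once divided by the value of 1 read, which gave the depth of each library. It ranged from 3105215 to 20082702 reads, and limits drawn from it cover counting error only. In each line, genes averaging 0.5 FPKM or more were tested on log2(FPKM + 0.5) with limma 3.58.1 in R 4.3.3 (moderated variance with a trend, p-values adjusted by the Benjamini-Hochberg method across every gene fitted in that line, threshold 0.05). Fold changes on this scale understate the change of low genes. A difference between lines was tested as an interaction in 1 limma model over the 24 libraries, for genes tested in every line. The tables were normalized separately, so that levels are compared within a line and set side by side across lines. The scripts were tested on simulated data with known changes. Other steps used Python 3.11.15, numpy 2.4.6, pandas 2.3.3 and matplotlib 3.10.9, and gene models and 3′UTR sequences came from GENCODE 44 on hg38. These gene models can differ from those used for counting, so that overlaps and 3′UTRs need not describe the bases counted.

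The members, the lists (SR kinases, import factors and SR-like regulators; core spliceosome subunits; the exon junction complex; hnRNP proteins under other symbols) and the markers were chosen with earlier results of these data known. Members were given with values if they passed in the same direction in at least 3 lines, were among the 2 largest falls or rises of a line, had 1 of the 5 smallest interaction p-values or were among the 3 highest in a line. List genes were named if they passed in the same direction in all 4 lines. Alternatives were other pseudocounts, filters and scalings, voom on recovered reads, a replicate block, Cochran's Q and leaving out each library. Replicate libraries differed by more than sampling noise (chi-square per gene of 1.54 to 15.1 over 24 pairs), so none was counted as a repeat.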

Additional observations from a re-analysis of the deposited data

Results flagged for a closer look

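The change upon knockdown differed between the 4 lines, by the limma interaction test, for these members. Adjusted p was 4.93e-07 for HNRNPF, 9.16e-06 for HNRNPH3, 1.47e-05 for HNRNPA3, 3.88e-05 for HNRNPA2B1 and 9.15e-05 for HNRNPH1. It was 0.000395 for SRSF11, 0.000881 for HNRNPAB, 0.0022 for SRSF1, 0.00254 for HNRNPH2, 0.00296 for HNRNPR and 0.00356 for HNRNPUL2. It was 0.00688 for HNRNPA1, 0.00995 for HNRNPUL1, 0.0171 for HNRNPD, 0.0181 for HNRNPDL, 0.019 for HNRNPA0, 0.0223 for HNRNPK, 0.0254 for HNRNPC and 0.0265 for HNRNPLL. Among the SR genes, SRSF1 and SRSF11 were the ones that passed. PANC1 was also harvested later than the other lines, so that line and time cannot be told apart. Groups of 3 libraries were too small for a search for single deviating libraries.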

How the results depend on the processing

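Of 42 calls of a named member in a line, 27 held under all 14 alternatives and 15 were lost under at least 1, of which 1 changed sign: with all libraries of a line set to the same sum, HNRNPH2 in PANC1 went to -0.35 on the log2 scale. Under that scaling members higher numbered 0 in A549, MV3 and PANC1, members lower in PANC1 30, and the SR minus hnRNP difference of medians in PANC1 was 0.212. The median of all tested PANC1 genes was -0.68 under the same scaling. With no filter on low values this difference was 0.0158 in ES2 and 0.200 in PANC1. By voom on recovered reads 3 members were higher in A549, 16 lower and 4 higher in ES2 and 2 higher in MV3. The shares of all genes called by voom are not given here. With HNRNPF left out, chosen after seeing the data, the siI1 minus siC difference of the SR to hnRNP ratio was 0.00736 in A549 and 0.0202 in ES2, and 0.0514 in MV3 and 0.0250 in PANC1. By Cochran's Q 12 members differed between lines.

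Same-numbered libraries shared only a number (correlations of -0.0562 to 0.0711). With a replicate block, members lower in A549 numbered 3, higher in A549 0 and lower in all 4 lines 3, the calls of HNRNPA0, HNRNPAB, HNRNPH2, HNRNPUL2 and SRSF2 in A549, HNRNPUL2 in ES2 and HNRNPAB in PANC1 were lost (adjusted p of 0.0551 to 0.130), and calls over all genes went from 2533 to 1001 in A549, 3973 to 2612 in ES2, 5853 to 4705 in MV3 and 3927 to 2987 in PANC1.

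Leaving out 1 library at a time gave 5 to 6 members lower and 0 to 1 higher in A549, 7 to 9 lower in ES2, 19 to 20 lower and 1 to 2 higher in MV3 and 11 to 17 lower in PANC1. Lower in all 4 lines were 3 to 5, and 17 to 22 differed between lines. The SR minus hnRNP difference ranged from -0.0176 to 0.0390 in A549, 0.0532 to 0.134 in ES2, 0.118 to 0.194 in MV3 and 0.216 to 0.309 in PANC1. When any A549 library other than siC replicate 2 was left out, 0 members were higher there. In MV3 2 were higher without siC replicate 3, and the ES2 difference was 0.134 without siC replicate 1. Where no value shows why a result moved, the cause was not tested. Depth was lowest in A549.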
